A study of Mus musculus with 17 samples.

Results

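The genes described here are 34 members of the glycolytic pathway and of the hypoxia response, chosen by name: the glucose carrier and enzymes that turn glucose into lactate, the oxygen-regulated factor Hif1a with its prolyl hydroxylases, and established HIF targets including Ndrg1. All 34 symbols were found among the 56748 genes of the count table, and 32 were among the 15196 genes with enough counts to be tested. Aldoc, the brain-type aldolase, and Egln3, an inducible prolyl hydroxylase, were not, with 29 and 48 counts summed over 17 libraries. The rule names genes and uses no measured value, but the list was drawn up with earlier results of these data known, so the rank of Ndrg1 given below is a description.

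The libraries came from the mouse podocyte line E11, cultured on the silicone PDMS in 3 forms. NT (no topography, n = 5 libraries) was flat, RT (round topography, n = 6) was textured but not fractal, and HF (high fractal, n = 6) carried a fractal texture derived from tracings of healthy glomeruli. All groups were the same line on the same material, and NT and RT serve as the controls of HF. Oxygen tension, glucose in the medium, cell density and what separates one replicate from another are not given in the sources used here, so a p-value here reflects how far these libraries vary, and that variation may be technical.

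Total counts per library ran from 14913649 to 24072966. Podocyte markers were present in part: Synpo averaged 282 CPM on NT (CPM are counts scaled to the same library total), Wt1 115 CPM and Podxl 131 CPM, whereas Tcf21 had no count. Summed over 10 podocyte genes the level was 828 to 877 CPM on NT, 830 to 855 on RT and 810 to 830 on HF, and Wt1 was lower on RT than on NT (log2 fold change -0.24, edgeR adjusted p = 6.16e-05). Summed over 9 tubular genes the level was 1425 to 1782 CPM on NT, 1524 to 1716 on RT and 1466 to 1815 on HF, with Slc34a1 and Aqp2 at 0. Of these, Cdh16 averaged 977, 976 and 976 CPM on NT, RT and HF, Lrp2 382, 400 and 411, and Aqp1 204, 246 and 257 (HF against NT: adjusted p = 0.309 for Aqp1). Summed over 6 mesangial and fibroblast genes it was 492 to 538 CPM on NT, 491 to 532 on RT and 507 to 552 on HF. Most of that sum was Pdgfrb alone, which averaged 478, 457 and 478 CPM on NT, RT and HF. Col1a1 averaged 30.1, 45.9 and 43.4 CPM (edgeR adjusted p = 0.134 for RT and 0.255 for HF against NT). The next highest of the 6, Gata3, averaged at most 5.08 CPM. Of the other lists, 5 endothelial genes together reached at most 1.15 CPM in any library, and of 5 immune genes Adgre1 and Cd3e had no count while Csf1r averaged 45.7 CPM. Summed over 5 immune genes the level was 38.1 to 43.1 CPM on NT, 47.0 to 59.3 on RT and 41.0 to 55.4 on HF, and Csf1r was higher on RT than on NT (log2 fold change 0.36, edgeR adjusted p = 0.00385). In bulk RNA, fewer cells of a type and less RNA per cell cannot be told apart. The part of these other markers in the results below was not tested.

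Glycolysis splits glucose into pyruvate in the cytosol and yields ATP without oxygen, and lactate dehydrogenase regenerates the NAD that the pathway consumes. When oxygen is short, the protein of Hif1a escapes hydroxylation by the EGLN enzymes, pairs with ARNT and binds short DNA elements near its target genes, many of which encode the glucose carrier, glycolytic enzymes and pyruvate dehydrogenase kinase. Podocytes draw on both glycolysis and mitochondria for the ATP that their actin-rich foot processes need. Hif1a is controlled largely at the level of its protein, which these data do not measure.

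The core of the hypoxia response element is ACGTG, and a second accepted form is GCGTG. Of the 34 members, 33 had a promoter entry in the RefSeq table of build GRCm38.p6, all but Ndrg1. In the 250 bases before the start, 38 of 50 member windows (76%) held at least 1 of these motifs on either strand, against 12679 of 32851 windows of the same length over all genes (38.6%). For ACGTG alone, with its complement CACGT, the shares were 44% and 16.6%. The palindrome CACGTG holds that motif on both strands, so it was counted once on each. Members with several annotated starts gave several windows, some of which overlap. These are matches of letters and not binding sites. A set of 4 windows is shown because these genes share the motif while only the first passed edgeR's test between surfaces: Hif1a itself, the kinase gene Pdk1, the enzyme gene Ldha and the mitochondrial target Bnip3. Letters run 5′ to 3′ on the gene's strand and end at the base before the start, and capitals mark either form of the motif on either strand.
Hif1a, chr12:73907617-73907866, + strand: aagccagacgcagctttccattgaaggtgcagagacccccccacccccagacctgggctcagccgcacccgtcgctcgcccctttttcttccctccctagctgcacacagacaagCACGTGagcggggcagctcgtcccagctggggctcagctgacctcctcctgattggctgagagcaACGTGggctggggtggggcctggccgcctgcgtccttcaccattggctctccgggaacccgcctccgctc
Pdk1, chr2:71872974-71873223, + strand: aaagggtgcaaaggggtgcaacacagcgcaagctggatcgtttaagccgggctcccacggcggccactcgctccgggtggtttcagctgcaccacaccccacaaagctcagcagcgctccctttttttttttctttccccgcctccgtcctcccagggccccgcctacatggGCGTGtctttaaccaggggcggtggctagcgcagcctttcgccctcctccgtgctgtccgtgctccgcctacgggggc
Ldha, chr7:46845554-46845803, + strand: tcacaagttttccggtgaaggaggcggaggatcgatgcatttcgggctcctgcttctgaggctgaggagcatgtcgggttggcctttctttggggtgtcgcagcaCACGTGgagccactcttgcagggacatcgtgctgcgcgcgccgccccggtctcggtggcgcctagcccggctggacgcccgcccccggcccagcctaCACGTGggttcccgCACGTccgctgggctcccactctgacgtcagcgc
Bnip3, chr7:138909507-138909756, - strand: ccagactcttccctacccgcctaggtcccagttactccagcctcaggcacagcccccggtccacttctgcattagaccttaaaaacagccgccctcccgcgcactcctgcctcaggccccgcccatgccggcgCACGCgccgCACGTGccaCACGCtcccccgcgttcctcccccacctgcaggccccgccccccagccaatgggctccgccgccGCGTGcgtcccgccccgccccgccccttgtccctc

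Hif1a and Ldha hold the motif 3 and 5 times in these windows, Bnip3 5 times and Pdk1 1 time, in the window of its upstream start.

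Per length of transcript, the enzyme chain was expressed far above most of the HIF targets. On the scale of CPM per kilobase of the longest coding transcript, averaged over 17 libraries, Aldoa (aldolase A, which splits fructose bisphosphate) had the highest level at 681, with a range of 599 to 761. Pkm (pyruvate kinase) followed at 461, Eno1 (enolase 1) at 348, Tpi1 (triosephosphate isomerase) at 289, Ldha (lactate dehydrogenase A) at 271 and Pgk1 (phosphoglycerate kinase) at 255. Over the 17 libraries the ranges of Aldoa, Pkm and Eno1 did not overlap each other, while those of Tpi1, Ldha and Pgk1 did. The order below Pkm depended on the length used. Per kilobase of all annotated exons, Aldoa at 362 and Pkm at 224 stayed highest. On that scale Pgk1 followed at 208, Pgam1 (phosphoglycerate mutase) at 179, Tpi1 at 168, Ldha at 148 and Eno1 at 131. Of the 10 other HIF targets, Ndrg1, which encodes a cytosolic stress-response protein, was the highest at 213 CPM per kilobase of the longest coding transcript. Its range of 182 to 240 overlapped the 231 to 284 of Pgk1 on this scale only. Per kilobase of all annotated exons Ndrg1 was still the highest of the 10, at 93.1, far below the 208 of Pgk1.

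Isoforms of the same step differed in level per kilobase of the longest coding transcript. Hexokinase 1 (Hk1), the constitutive enzyme that traps glucose as its phosphate, stood at 56.1 CPM per kilobase and the inducible Hk2 at 3.63. Of the phosphofructokinases, which commit sugar to glycolysis, the liver type Pfkl stood at 124, the muscle type Pfkm at 38.9 and the platelet type Pfkp at 9.73. Eno1 at 348 exceeded the neuronal enolase Eno2 at 20.3. In each of these isoform sets the ranges over the 17 libraries did not overlap, and the order was the same per kilobase of all annotated exons. Of the windows of Pfkp, 16% are shared with Pitrm1, which overlaps it on the opposite strand and held 126% as many counts, and the libraries did not keep strand.

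The lowest tested members were Car9 at 1.14, Adm at 1.40 and Slc16a3 at 0.253 CPM per kilobase of the longest coding transcript. Slc2a1, the glucose carrier GLUT1, stood at 17.8. Other HIF targets were higher than these 3, among them Ddit4 at 45.6, Kdm3a at 21 and Bnip3 at 17.3. Not scaled to length, Car9 (carbonic anhydrase 9, a strongly HIF-dependent enzyme of the cell surface) averaged 2.03 ± 0.384 CPM on NT (SD, n = 5), 2.40 ± 0.480 on RT and 2.44 ± 0.491 on HF (SD, n = 6 each). An annotated record on its opposite strand, Gm12454, had 86.8% as many counts as Car9, and the libraries did not keep strand. Adm, the vasodilator peptide adrenomedullin, averaged between 1.69 and 2.07 CPM in the groups, and Slc16a3, the lactate exporter MCT4, between 0.905 and 1.29 CPM.

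**Figure D1:**
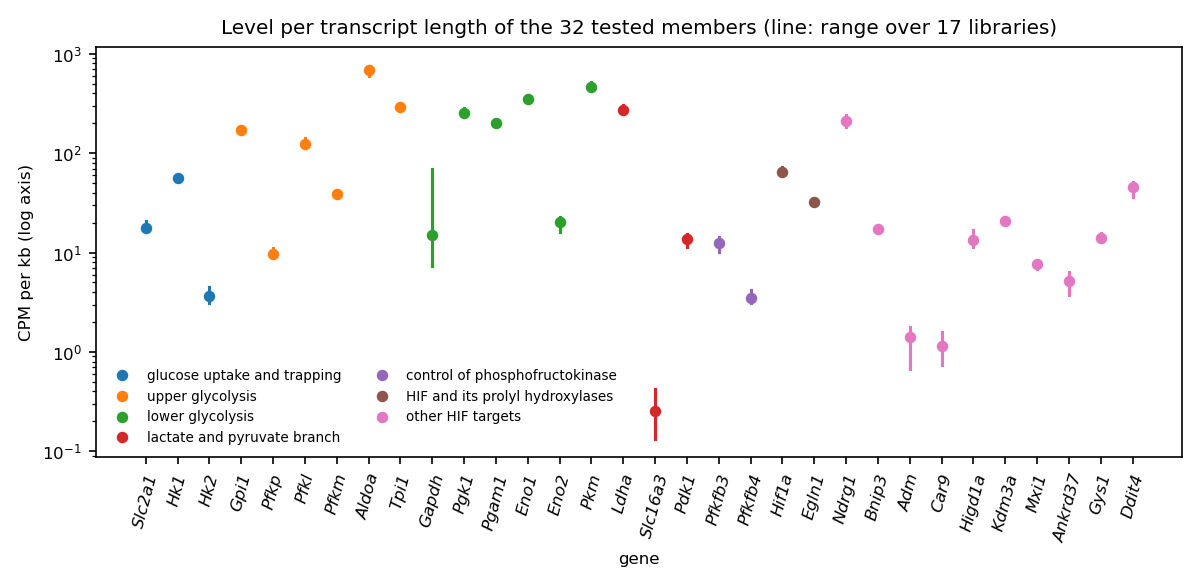
Level of the 32 tested members in CPM per kilobase of the longest coding transcript (log axis), in pathway order and coloured by role. Points are means over 17 libraries and lines run from the lowest to the highest library; Aldoa has the highest mean at 681, Slc16a3 the lowest at 0.253, and Gapdh the widest range, 7.39 to 68.6.

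Gapdh, the enzyme that oxidises glyceraldehyde phosphate and a common reference gene, was listed far below its neighbours in the chain, at 14.9 CPM per kilobase. Its values were 11.9, 11.9, 97.5, 19.0 and 23.2 CPM in NT 1 to NT 5, between 10.7 and 18.7 CPM on RT (median 16.5) and between 10.5 and 22.9 CPM on HF (median 17.6). The library NT 3 stood apart from the other 16. Of the 100-base windows of the Gapdh coding transcript, 78% also occur in transcripts of 86 other genes, among them processed pseudogenes. The pseudogene Gm13394 held 236 ± 20.3 CPM on NT (SD, n = 5), 235 ± 11.6 on RT and 240 ± 10.4 on HF (SD, n = 6 each), and its counts summed over the libraries were 1101% of those of Gapdh. The counts under the name Gapdh are therefore uncertain as a measure of the gene. Its log2 fold change was -0.96 ± 0.49 for HF against NT and -1.07 ± 0.48 for RT against NT (SE, edgeR adjusted p = 0.403 and 0.278), and without NT 3 these values were 0.05 and -0.07. Near-identical copies also share 67% of the windows of Pgk1, 59% of Eno1 and 39.7% of Pgam1. Each of these copies held at most 1.43% of the member's counts. How reads that match several genes were counted is not given in the sources used here. The counts of the copies therefore cannot show how many reads these members lost. Shared windows made up 33.5% of Bnip3 and 32.3% of Higd1a, which include the overlap with annotated antisense records (Gm45507 and Gm47112). The lincRNA AC160336.1, which shares windows with Bnip3, held 12.5% as many counts as Bnip3.

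Between surfaces, most members differed little, and Ndrg1 was the exception. It was lower on the round topography than on both other surfaces. Hif1a was slightly lower on RT than on NT. No other member passed an adjusted p of 0.05 in edgeR's quasi-likelihood test, with Benjamini-Hochberg adjustment over all 15196 genes, and no member passed between HF and NT.

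For HF against NT, 0 of 32 tested members passed, where 2.33% of all genes were called. DESeq2 and limma voom also called 0 members, and 3.71% and 2.2% of all genes. An unadjusted p under 0.05 was found for 7 of 32 (21.9%, against 14.2% of all genes): Hk2, Eno2, Mxi1 and Gys1 with positive and Pfkl, Hif1a and Ankrd37 with negative log2 fold changes. For HF against RT, 1 of 32 passed, as a rise (0.211% of all genes were called, and 0.132% as higher), and 3 had an unadjusted p under 0.05 (9.38%, against 8%). For RT against NT, 2 of 32 passed, both as falls (3.97% of all genes were called, and 1.44% as lower), and 8 had an unadjusted p under 0.05 (25%, against 17.1%). The median log2 fold change of the members and of all genes was 0.0011 and -0.0025 between HF and NT, 0.0076 and -0.0007 between HF and RT, and -0.0065 and -0.0021 between RT and NT. Groups did not overlap for 0 members in HF against NT (2.18% of all genes), for Ndrg1 in HF against RT (higher in 0.447%) and for Ndrg1 and Hif1a in RT against NT (lower in 1.22%). DESeq2 called Pdk1 and Ddit4 in addition for RT against NT, and limma voom called no further member in any comparison (over all genes DESeq2 called 0.553% between HF and RT and 5.49% between RT and NT, and limma voom 0.217% and 4.13%).

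Ndrg1 (N-myc downstream regulated 1) had 614, 629, 670, 693 and 662 CPM in NT 1 to NT 5. On RT the values ran from 526 to 594 CPM (median 543) and on HF from 604 to 671 CPM (median 652). All 6 RT libraries lay below all 5 NT and all 6 HF libraries, and NT and HF overlapped. The mean was 654 ± 31.5 CPM on NT (SD, n = 5), 550 ± 25.0 on RT and 645 ± 24.4 on HF (SD, n = 6 each). The log2 fold change of RT against NT was -0.25 ± 0.04 (SE, 95% interval -0.32 to -0.17, adjusted p = 5.71e-05), a change of -15.8%. HF against RT gave 0.23 ± 0.04 (SE, 95% interval 0.16 to 0.30, adjusted p = 0.000651). These 2 comparisons share the RT libraries. HF against NT gave -0.02 ± 0.04 (SE, 95% interval -0.10 to 0.06, adjusted p = 0.874). By p-value Ndrg1 ranked 5 of 15196 genes between HF and RT and 27 between RT and NT. Both calls held in all 21 and all 20 other settings tried, with log2 fold changes of 0.22 to 0.25 and -0.27 to -0.23. Records on the opposite strand overlap 8.43% of its exonic bases, and 1 of these, Gm2895, had 44 counts in all. In the same comparison of RT with NT, Wt1 was lower and Csf1r higher, and their part in the values of Ndrg1 was not tested.

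Hif1a had 309, 341, 334, 323 and 318 CPM in NT 1 to NT 5, from 288 to 308 CPM on RT (median 297) and from 285 to 327 CPM on HF (median 306). All 6 RT libraries lay below all 5 NT libraries, the highest RT library at 308 CPM beside the lowest NT library at 309 CPM, and HF overlapped both. The log2 fold change of RT against NT was -0.13 ± 0.04 (SE, 95% interval -0.20 to -0.05, adjusted p = 0.0348), a change of -8.45%. HF against NT gave -0.09 ± 0.04 (SE, adjusted p = 0.231) and HF against RT 0.04 ± 0.03 (SE, adjusted p = 0.844), so that HF was not shown to differ from either. The call of Hif1a was lost without any 1 of 7 libraries (NT 2, NT 3, NT 4, RT 1, RT 2, RT 3 or RT 4), with adjusted p of 0.0604 to 0.102. Other annotated genes overlap 8.11% of its exonic bases, of which Gm15283 had 0.438% as many counts.

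The prolyl hydroxylase Egln1, which marks the HIF protein for degradation when oxygen is present, averaged 117 ± 2.49 CPM on NT (SD, n = 5), 115 ± 4.11 on RT and 114 ± 3.71 on HF (SD, n = 6 each). Its log2 fold change was between -0.04 and -0.01 in the 3 comparisons, with 95% intervals within -0.11 to 0.05.

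**Figure D2:**
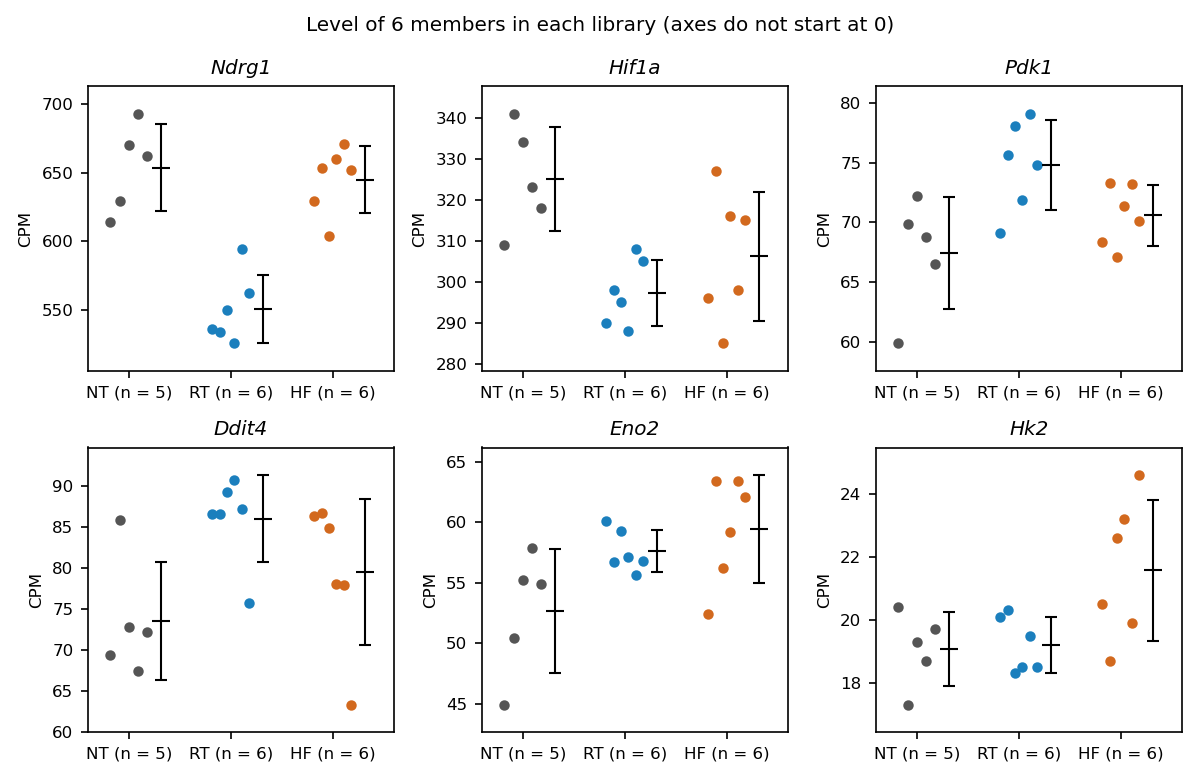
CPM of Ndrg1, Hif1a, Pdk1, Ddit4, Eno2 and Hk2 in each library (1 point each) on NT (n = 5), RT (n = 6) and HF (n = 6), with mean and SD beside them; the axes do not start at 0. All RT points of Ndrg1 (526 to 594) lie below all NT and HF points, while for Pdk1, Ddit4, Eno2 and Hk2 the groups overlap.

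The 95% intervals show how precise each log2 fold change is, 1 gene at a time and with no adjustment for their number. For the 27 members with a mean of at least 10 CPM, Gapdh aside, the 95% intervals of the log2 fold change lay within -0.25 to 0.32 between HF and NT, -0.28 to 0.30 between HF and RT and -0.32 to 0.39 between RT and NT. The low members were less certain, with intervals of -0.05 to 1.07 for Slc16a3 and -0.57 to -0.04 for Ankrd37, an ankyrin repeat protein, for HF against NT. Exons on the opposite strand cover 26.4% of those of Ankrd37.

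**Figure D3:**
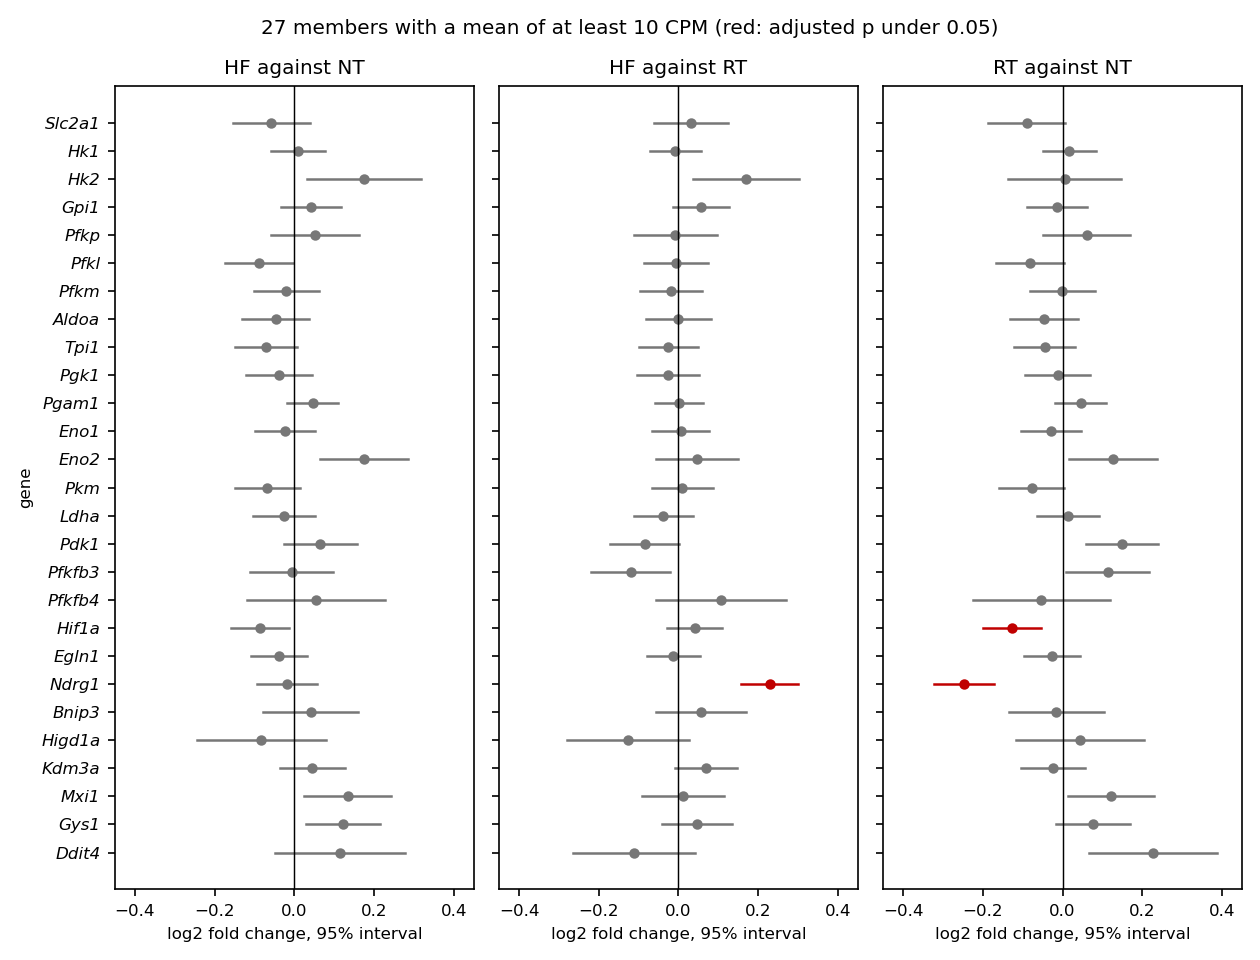
Log2 fold change (points) with 95% interval (lines) of the 27 members with a mean of at least 10 CPM, Gapdh aside, in 1 panel per comparison (from left, HF and NT, HF and RT, RT and NT). Red marks an adjusted p under 0.05: no gene in the first panel, Ndrg1 in the second, and Ndrg1 and Hif1a in the third; the intervals of all the others lie between -0.28 and 0.39.

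In glucose uptake and trapping, 0 of 3 genes passed in any comparison by edgeR, DESeq2 or limma voom, and Hk2 alone had an unadjusted p under 0.05, in both comparisons of HF. Slc2a1 had 58.5, 68.6, 60.5, 57.0 and 55.8 CPM in NT 1 to NT 5, with 52.5 to 60.8 CPM on RT (median 55.7) and 56.1 to 60.1 CPM on HF (median 57.5). The 3 groups overlapped (RT against NT: log2 fold change -0.09 ± 0.05, SE, adjusted p = 0.339). Hk2 had 20.4, 17.3, 19.3, 18.7 and 19.7 CPM in NT 1 to NT 5, 18.3 to 20.3 CPM on RT (median 19.0) and 18.7 to 24.6 CPM on HF (median 21.5). Some HF libraries were the highest of all, and others lay among the controls. Its log2 fold change was 0.17 ± 0.07 for HF against NT (SE, adjusted p = 0.214) and 0.17 ± 0.07 for HF against RT (SE, adjusted p = 0.428). Hk1 had log2 fold changes of -0.01 to 0.02, with intervals within -0.07 to 0.08.

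In upper glycolysis, 0 of 6 tested genes passed by any of the 3 tools (Gpi1, Pfkp, Pfkl, Pfkm, Aldoa and Tpi1, from glucose phosphate isomerase to triosephosphate isomerase), and 1, Pfkl, had an unadjusted p under 0.05, for HF against NT. All log2 fold changes lay within -0.09 to 0.06. Pfkl averaged 481 ± 36.8 CPM on NT (SD, n = 5), 454 ± 17.9 on RT and 452 ± 21.7 on HF (SD, n = 6 each), and HF against NT gave -0.09 ± 0.04 (SE, adjusted p = 0.327).

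In lower glycolysis, 0 of 6 genes passed by any of the 3 tools, and an unadjusted p under 0.05 was found for Eno2 against NT on both topographies and for Gapdh on RT against NT. Besides Gapdh, described above, Pgk1, Pgam1 (phosphoglycerate mutase), Eno1 and Pkm had log2 fold changes within -0.08 to 0.05. Eno2 had 44.9, 50.4, 55.2, 57.9 and 54.9 CPM in NT 1 to NT 5, 55.6 to 60.1 CPM on RT (median 56.9) and 52.4 to 63.4 CPM on HF (median 60.6). NT held the lowest libraries and overlapped the other groups. HF against NT differed by 0.17 ± 0.05 in log2 units (SE, adjusted p = 0.0857), and RT against NT gave 0.13 ± 0.05 (SE, adjusted p = 0.209). Eno2 passed for HF against NT with no filter on low counts (adjusted p = 0.0193), without NT 4 (0.0435) or without HF 1 (0.0322).

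At the branch between lactate and the mitochondria, 0 of 3 genes passed by edgeR or limma voom and 1, Pdk1, by DESeq2 for RT against NT, where it also had the 1 unadjusted p under 0.05. Ldha had 459, 488, 491, 474 and 550 CPM in NT 1 to NT 5, 478 to 531 CPM on RT (median 489) and 466 to 498 CPM on HF (median 489). Its groups overlapped throughout, with log2 fold changes of -0.04 to 0.01 and 95% intervals within -0.11 to 0.09. Pdk1 encodes a kinase that inhibits pyruvate dehydrogenase. It had 59.9, 69.9, 72.2, 68.8 and 66.5 CPM in NT 1 to NT 5. Values were 69.1 to 79.1 CPM on RT (median 75.2) and 67.1 to 73.3 CPM on HF (median 70.8). RT was the highest group, and overlapped both others. The log2 fold change for RT against NT was 0.15 ± 0.04 (SE, edgeR adjusted p = 0.0510) and DESeq2 gave an adjusted p of 0.0328; over 20 other settings the adjusted p ran from 0.0206 to 0.170. HF against RT gave -0.08 ± 0.04 (SE, adjusted p = 0.634).

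Of the bifunctional enzymes that make and remove the regulatory sugar phosphate that activates phosphofructokinase, neither passed by any of the 3 tools. Unadjusted, the p of Pfkfb3 was under 0.05 for RT against NT and also for HF against RT. Pfkfb3 had 57.6, 59.1, 58.8, 56.6 and 57.0 CPM in NT 1 to NT 5, 58.6 to 69.6 CPM on RT (median 61.4) and 48.7 to 64.6 CPM on HF (median 58.1). NT was narrow and HF wide, with HF 6 the lowest library of all. The log2 fold change was 0.11 ± 0.05 for RT against NT (SE, adjusted p = 0.241) and -0.12 ± 0.05 for HF against RT (SE, adjusted p = 0.469). Pfkfb4 averaged between 11.6 and 12.5 CPM in the groups.

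Among the other HIF targets, Ndrg1 was the 1 of 10 that passed. Ddit4 (REDD1, an inhibitor of mTORC1 induced by hypoxia and other stresses) had 69.4, 85.9, 72.8, 67.4 and 72.2 CPM in NT 1 to NT 5, 75.7 to 90.8 CPM on RT (median 86.9) and 63.3 to 86.7 CPM on HF (median 81.5). NT 2 lay among the RT values, and RT 6 and HF 6 were the lowest of their groups. The log2 fold change for RT against NT was 0.23 ± 0.08 (SE, edgeR adjusted p = 0.121). Ddit4 passed in 6 of 20 other settings. These were the replicate block (adjusted p = 8.46e-05), no filter beyond 1 count (0.000429) and libraries numbered 1 to 5 (0.00188). The others were without NT 2 (0.0213), only the 2 groups in the fit (0.0216) and DESeq2 (0.0274). Over all 20 settings the adjusted p ran from 8.46e-05 to 0.229.

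Mxi1, a MAX partner that opposes Myc, had 35.5, 35.1, 40.0, 34.2 and 35.1 CPM in NT 1 to NT 5, 35.4 to 41.9 CPM on RT (median 39.7) and 37.2 to 42.5 CPM on HF (median 39.0). All NT libraries but NT 3 lay below all HF libraries (HF against NT: log2 fold change 0.13 ± 0.05, SE, adjusted p = 0.213). Gys1, the glycogen synthase of muscle and most tissues, had 51.6, 48.7, 48.0, 46.8 and 50.2 CPM in NT 1 to NT 5, 49.2 to 57.6 CPM on RT (median 51.0) and 50.0 to 55.6 CPM on HF (median 53.8). The groups overlapped (HF against NT: log2 fold change 0.12 ± 0.05, SE, adjusted p = 0.171), and exons of Ruvbl2 cover 6.47% of those of Gys1 on the opposite strand. Bnip3, a mitophagy receptor, averaged 29.9 to 31.1 CPM in the groups, Higd1a, a stabiliser of respiratory complexes, 28.7 to 31.4 CPM, and Kdm3a, a histone demethylase, 99.8 to 105 CPM. None of the 3 passed, and their log2 fold changes lay within -0.13 to 0.07.

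The abundant glycolytic enzyme genes varied together among the libraries of 1 group. They are the 11 with a mean of at least 100 CPM (Hk1, Gpi1, Pfkl, Pfkm, Aldoa, Tpi1, Pgk1, Pgam1, Eno1, Pkm and Ldha), a set formed after the values were seen. Their summed level was 5442, 5980, 6235, 6124 and 6575 CPM in NT 1 to NT 5, 5814 to 6274 CPM on RT and 5791 to 6008 CPM on HF. NT 1 was the lowest NT library for all 11, and NT 5 the highest for 10, the exception being Pgam1. Aldoa stood at 927 CPM in NT 1 and 1179 CPM in NT 5, and Pkm at 1019 and 1257 CPM. Genes moved jointly in other libraries too: all 11 lay above their mean over 17 libraries in NT 3 and in RT 5, whose summed level of 6274 CPM was the highest on RT, and 10 of 11 lay below it in RT 3. Over all tested genes 50.4% were higher in NT 5 than in NT 1. That share is largely set by the scaling, which balances higher and lower genes between libraries. NT 1 and NT 5 were picked from the values of these 11 genes.

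The summed level averaged 6071 ± 415 CPM on NT (SD, n = 5), 5930 ± 179 on RT and 5925 ± 101 on HF (SD, n = 6 each). The median coefficient of variation of the 11 genes was 7.03% on NT, 3.55% on RT and 2.64% on HF, beside 5.27%, 3.30% and 3.47% for the 2496 tested genes with a mean of at least 100 CPM. The difference in spread was not tested. With each group centred, the median Pearson r over the 55 pairs of these genes was 0.66 over 17 libraries (range -0.19 to 0.93), and 0.39 without NT 1 and NT 5. These points share library preparation, depth scaling and the fixed sum of CPM. The share of mitochondrially encoded counts was highest in NT 1 (2.47%) and lowest in RT 4 (2.09%), with 2.12% in NT 5, and total counts were 16141422 in NT 1 and 16962456 in NT 5. The part of these in the enzyme levels was not tested.

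**Figure D4:**
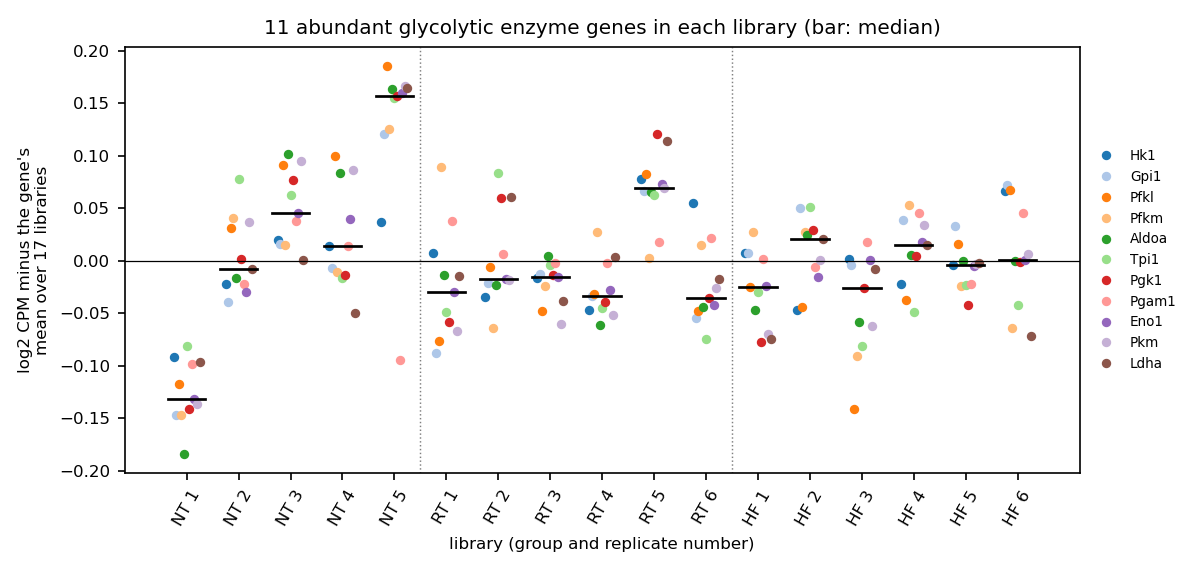
Log2 CPM of 11 abundant glycolytic enzyme genes in each library, relative to each gene's mean over 17 libraries (points, 1 colour per gene; bars are medians; dotted lines part NT, RT and HF). All 11 genes lie below their mean in NT 1 and 10 of 11 lie above it in NT 5; all 11 also lie above it in NT 3 and RT 5, and the medians of the RT and HF libraries lie between -0.04 and 0.07.

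By the same centred measure over 17 libraries, the members closest to Ndrg1 were Pkm (r = 0.74), Kdm3a (0.73), Pfkl (0.72), Aldoa (0.71) and Pdk1 (0.69), and the farthest were Pfkfb3 (-0.43), Ddit4 (-0.37), Slc2a1 (-0.29), Pfkfb4 (-0.19) and Gys1 (-0.17). Pkm, Pfkl and Aldoa, which tracked Ndrg1 from library to library within groups, had log2 fold changes of -0.08 to -0.05 for RT against NT and did not pass.

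Genes of neighbouring pathways were counted from lists drawn up by pathway. The lists were made with earlier results of these data known, so the shares below are descriptions. Of 42 tested wider HIF targets and regulators, 2 rose and 2 fell for HF against NT, 2 rose and 2 fell for RT against NT, and 0 passed for HF against RT by edgeR, DESeq2 or limma voom (edgeR called 2.33%, 3.97% and 0.211% of all genes in these comparisons). An unadjusted p under 0.05 was found for 13, 12 and 10 of the 42. In each comparison this was a larger share than over all genes (14.2%, 17.1% and 8%). The share called by edgeR was likewise larger than over all genes for HF against NT and for RT against NT. Whether the 42 differ in this from all genes was not tested. DESeq2 called 4 of them between HF and NT, 0 between HF and RT and 8 between RT and NT, and limma voom 4, 0 and 6, where over all genes they called 3.71%, 0.553% and 5.49%, and 2.2%, 0.217% and 4.13%. In the same order the median log2 fold change of the 42 was 0.03, -0.0094 and 0.02, beside -0.0025, -0.0007 and -0.0021 over all genes. Vegfa, the angiogenic factor that podocytes supply to the glomerular endothelium and a classical HIF target, averaged 172 ± 6.28 CPM on NT (SD, n = 5), 174 ± 7.79 on RT and 184 ± 9.21 on HF (SD, n = 6 each), and did not pass (HF against NT: log2 fold change 0.10 ± 0.04, SE, adjusted p = 0.179).

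Nampt, the rate-limiting enzyme of NAD salvage, was lower on both textured surfaces than on NT, at 155 ± 5.80 CPM on RT and 154 ± 7.74 on HF (SD, n = 6 each) against 174 ± 10.6 (SD, n = 5). The log2 fold changes were -0.17 ± 0.04 and -0.18 ± 0.04 (SE, adjusted p = 0.0103 and 0.00831), and these comparisons share the NT libraries. Gbe1, the glycogen branching enzyme, was likewise lower on RT at 29.7 ± 2.05 CPM and on HF at 29.5 ± 1.72 (SD, n = 6 each) than on NT at 35.0 ± 2.12 (SD, n = 5, adjusted p = 0.0123 and 0.0144). Without NT 3, Nampt did not pass in either comparison (adjusted p = 0.0600 for RT and 0.0529 for HF), nor did Gbe1 (0.0503 and 0.0564), and without HF 4 Gbe1 did not pass for HF (0.0530). Of the rises for HF against NT, Errfi1, a feedback inhibitor of the EGF receptor, gave 0.21 ± 0.04 in log2 units (SE, adjusted p = 0.00524), each HF library lying above each NT library, and Mt1, a metallothionein, 0.40 ± 0.09 (SE, adjusted p = 0.0145, and 0.0530 without HF 4). For RT against NT they were Loxl2, a lysyl oxidase of the matrix, at 0.62 ± 0.12 (SE, adjusted p = 0.00133) and Rora, a nuclear receptor, at 0.20 ± 0.06 (SE, adjusted p = 0.0330). Rora passed in 12 of 20 other settings, with adjusted p up to 0.132, and was lost without NT 4, NT 5, RT 1, RT 2, RT 4 or RT 6.

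The remaining routes of glucose carbon gave the following calls, beside 2.33% of all genes between HF and NT, 0.211% between HF and RT and 3.97% between RT and NT. Of 18 tested other glycolytic isoforms and lactate handling genes, 12 of pyruvate oxidation and its kinases, 18 of the citrate cycle and 3 of gluconeogenesis, 0 passed in any comparison by edgeR, DESeq2 or limma voom (at an unadjusted p under 0.05 there were at most 3 in 1 list and comparison). In the pentose phosphate branch 1 of 8 passed: G6pdx, the dehydrogenase that makes NADPH, was lower on RT at 81.7 ± 4.23 CPM (SD, n = 6) than on NT at 92.4 ± 4.27 (SD, n = 5), with all RT libraries below all NT libraries (log2 fold change -0.18 ± 0.04, SE, adjusted p = 0.00595). Of 13 tested glycogen genes, Ugp2, which makes UDP-glucose, and Gbe1 were lower on HF than on NT. Ugp2 stood at 67.2 ± 2.56 CPM on HF (SD, n = 6) and 75.8 ± 4.40 on NT (SD, n = 5), a difference of -0.17 ± 0.04 in log2 units (SE, adjusted p = 0.0264), each HF library lying below each NT library. It passed in 14 of 20 other settings, with adjusted p up to 0.105, and was lost without NT 2, NT 3, HF 2, HF 5 or HF 6.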

How the data were processed

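RNA of 17 libraries was counted per gene. The authors deposited raw counts without normalization. Per the submitters' processing notes, the tools were featureCounts 1.5.0-p3, HISAT2 2.0.5 and CASAVA, and the build was GRCm39, with no roles given; annotation release, strand setting and filters are not given in the sources used here. Per the labels, poly-A RNA gave non-directional libraries.

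Symbols came from GENCODE M21 (GRCm38), which names 52073 of the 56748 identifiers. Aldoa has 2 identifiers there, and the second held 0.151% as many counts and was left out. Transcript lengths, shared 100-base windows and exonic overlaps came from M21, and promoters from the RefSeq table of GRCm38.p6.

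Genes were kept by filterByExpr, scaled by TMM and tested by the robust quasi-likelihood F test of edgeR 4.0.16, with 1 mean per group in 1 fit; p-values are two-sided and Benjamini-Hochberg adjusted over 15196 genes (threshold 0.05). The scripts were tested on simulated data. CPM use TMM-scaled totals. Each standard error is the log2 fold change over the square root of its F value. Counting error of the lowest members is part of their intervals, and depth was 14913649 to 24072966 counts. Alternatives were RLE and upper-quartile scaling, DESeq2 1.42.0, limma 3.58.1 voom, other filters, only the 2 groups compared, a replicate block, libraries numbered 1 to 5, and leaving out each library.

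Members and lists were chosen with earlier results of these data known. Per-library values are given for members past the threshold, for Ndrg1, Hif1a, Slc2a1, Gapdh and Ldha, and for those with the smallest p up to 12; of other lists, up to 4 genes past the threshold with the smallest p, and Vegfa, chosen after its values were seen. Of 48 wider HIF genes, Ero1a was not matched. A further podocyte marker is not reported here.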

Additional observations from a re-analysis of the deposited data

Results flagged for a closer look

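In 36 groups looked at (12 members on 3 surfaces), 5 held a library farther from the rest than Dixon's 95% limit, where chance gives about 1 in 20. Gapdh stood at 97.5 CPM in NT 3, with the next NT library at 23.2. Ddit4 stood at 85.9 CPM in NT 2, with the next at 72.8, and at 75.7 CPM in RT 6, with the next at 86.6. Gys1 stood at 57.6 CPM in RT 1, with the next at 51.9, and Mxi1 at 40.0 CPM in NT 3, with the next at 35.5.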

How the results depend on the processing

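For HF against NT, 0 members passed, and 1 passed with no filter beyond 1 count (Eno2), with the replicate block (Ddit4), without NT 4 and without HF 1 (Eno2 in both), so that leaving out single libraries gave 0 to 1. For HF against RT the 1 call, Ndrg1, was unchanged in all 21 settings, leave-one-out included (1 to 1). For RT against NT, 2 passed, and 4 with DESeq2, with no filter and with the replicate block, each adding Pdk1 and Ddit4 to Ndrg1 and Hif1a; single libraries left out gave 1 to 3, with 1 without NT 4, RT 2, RT 3 or RT 4. The count of all genes was 354, 32 and 603. It became 564 and 84 for HF against NT and HF against RT with DESeq2, 597 and 148 with no filter, 200 and 113 with only the 2 groups, 637, 125 and 995 for the 3 comparisons with the replicate block, and 15 for HF against RT with libraries 1 to 5. Leave-one-out gave 202 to 604 (moved most by NT 3, NT 5 and HF 4), 14 to 89 (by RT 1, RT 2, RT 3 and every HF library but HF 2) and 365 to 806 (NT 3). The cause was not tested.

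Same-numbered libraries of different groups had correlations of deviations from -0.0012 to 0.24. Their medians were 0.04 (HF and NT), 0.0371 (HF and RT) and 0.0341 (RT and NT). Differently numbered libraries had medians of -0.0041, -0.0132 and -0.0145 in the same order. Their values reached from -0.15 to 0.107. By the same order, 2 of 5, 1 of 6 and 2 of 5 libraries correlated best with their own number in the other group. Whether the replicate number marks a source of variation shared by the groups was not tested. Of the 12 members run under these settings, the sign changed for the following, none of which passed in that comparison. With the replicate block, Pfkfb3 gave 0.0141 for HF against NT and Hk2 -0.0077 for RT against NT; with libraries 1 to 5 Pfkfb3 gave 0.0364, and with upper-quartile scaling Hk2 gave -0.0018. Single libraries left out gave, for HF against NT, -0.0401 to 0.0026 (Ndrg1), -1.17 to 0.0454 (Gapdh), -0.0483 to 0.0168 (Ldha) and -0.0436 to 0.0371 (Pfkfb3), for HF against RT -0.0158 to 0.0326 (Mxi1), and for RT against NT -0.0107 to 0.0544 (Ldha) and -0.0285 to 0.0289 (Hk2). Depth limits Aldoc, Egln3, Slc16a3, Adm and Car9.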

Other observations

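With each group centred, Ddit4 and Pfkfb3 had their lowest mean deviation in the libraries numbered 6, which occur on RT and HF only. In log2 CPM it was -0.25 for Ddit4 and -0.13 for Pfkfb3 (2 libraries each, both negative). Libraries numbered 2 had positive deviations in all 3 groups for both genes, 0.12 and 0.03 on average. Agreement in sign was not limited to these genes. For Gapdh only number 4 had mixed signs. Its mean deviation was -0.70, -0.46, 0.77, 0.26 and 0.25 for numbers 1, 2, 3, 5 and 6. Slc2a1 was negative in all 3 groups for numbers 1 and 5 and positive in all 3 for number 2. Hif1a, Ldha and Pdk1 were likewise negative in all 3 for number 1, and Gys1 for numbers 3 and 4. Ndrg1 was negative in all 3 groups for number 1 (-0.05 on average) and positive in all 3 for number 5 (0.06). Its signs were mixed for numbers 2, 3 and 4. Eno2, Hk2 and Mxi1 had mixed signs at every number. Ddit4 and Pfkfb3 were singled out from these values, and what the numbers stand for is not given in the sources used here.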
